A study of Mus musculus with 41 samples.

Results

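The HOX genes of clusters A to D were described across mouse brainstem tumors and cultured fetal brain cells that carried a tagged histone H3.3 allele, either K27M or wild type. The members were chosen by name: 38 HOX genes were looked up in a table of 34591 gene entries, and all 38 were found, 10 in cluster A, 10 in cluster B, 9 in cluster C and 9 in cluster D. No level of expression was required, so members near 0 were kept. Levels are FPKM, fragments scaled by transcript length and by the mapped fragments of the library, which can be compared between genes.

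The tumor groups were 20 K27M tumors, which carried the knock-in allele H3f3aLSL-K27M-Tag/+, the receptor transgene LSL-PDGFRαV544ins, Trp53flox/flox and the Cre line Nestin-creERT2, and 9 WT-Tag tumors that carried H3f3aLSL-WT-Tag/+ in place of the mutant allele. All 29 tumors therefore shared the activated PDGF receptor alpha transgene, the conditional loss of Trp53 and a tamoxifen-inducible Cre under the Nestin promoter, which is active in neural stem and progenitor cells; no age was given, and the tumors are pieces of snap-frozen tissue. The culture groups were neurospheres from e15.5 brain (e for embryonic day) with Nestin-cre and no tumor alleles: 3 K27M hindbrain (H3f3aLSL-K27M-Tag/+), 3 WT-Tag hindbrain (H3f3aLSL-WT-Tag/+), 3 K27M forebrain and 3 WT-Tag forebrain libraries, 1 of each in experiments 1, 2 and 3. Every culture was labelled female except the WT-Tag cultures of experiment 3, which were labelled male. The labels do not say whether each culture came from a separate animal, so p-values measure the spread between these libraries.

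HOX genes encode homeodomain transcription factors that give cells their position along the head-to-tail axis. Within each cluster the genes lie in the order in which they are used along the body: genes at the 3′ end, with low paralog numbers, are expressed up to the hindbrain, and genes at the 5′ end, with high numbers, are normally kept to the spinal cord, trunk and limbs. Retinoic acid opens the clusters from the 3′ end, and Polycomb repressive complexes, which deposit the H3K27 trimethyl mark that the K27M histone interferes with, keep unused genes silent. Forebrain cells normally express none of these genes.

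The results below turn on 4 members whose promoter sequence was at hand: Hoxa2, which shapes the upper hindbrain and was lower in K27M hindbrain cultures, and the 5′ members Hoxd8, Hoxd9 and Hoxa13, which had the smallest p-values between the tumor groups. Their RefSeq promoter windows, 250 bases before to 50 after the transcript start in GRCm38.p6, are shown to let the reader see how unlike they are in base composition. Each is written 5′ to 3′ on the gene's own strand, and capitals mark the CG dinucleotides, which are the sites of DNA methylation and are dense in many promoters that Polycomb complexes bind.
Hoxa2 (chr6:52164782-52165081, minus strand): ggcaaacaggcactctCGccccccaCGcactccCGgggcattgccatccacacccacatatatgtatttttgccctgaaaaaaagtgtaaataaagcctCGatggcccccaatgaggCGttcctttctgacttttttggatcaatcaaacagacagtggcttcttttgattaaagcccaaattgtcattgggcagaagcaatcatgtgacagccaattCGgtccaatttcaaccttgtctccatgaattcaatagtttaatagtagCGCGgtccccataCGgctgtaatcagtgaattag
Hoxd8 (chr2:74704365-74704664, plus strand): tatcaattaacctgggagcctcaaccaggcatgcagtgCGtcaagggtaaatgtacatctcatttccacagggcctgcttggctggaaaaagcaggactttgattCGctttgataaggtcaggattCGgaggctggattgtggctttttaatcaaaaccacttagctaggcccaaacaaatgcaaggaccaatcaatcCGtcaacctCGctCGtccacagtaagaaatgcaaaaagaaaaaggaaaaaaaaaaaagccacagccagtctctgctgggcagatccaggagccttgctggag
Hoxd9 (chr2:74697513-74697812, plus strand): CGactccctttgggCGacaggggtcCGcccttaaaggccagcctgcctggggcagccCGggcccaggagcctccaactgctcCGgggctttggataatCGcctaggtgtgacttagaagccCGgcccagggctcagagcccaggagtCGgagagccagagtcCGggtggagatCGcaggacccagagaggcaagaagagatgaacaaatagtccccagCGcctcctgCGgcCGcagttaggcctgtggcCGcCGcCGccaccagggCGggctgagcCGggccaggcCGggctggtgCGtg
Hoxa13 (chr6:52260831-52261130, minus strand): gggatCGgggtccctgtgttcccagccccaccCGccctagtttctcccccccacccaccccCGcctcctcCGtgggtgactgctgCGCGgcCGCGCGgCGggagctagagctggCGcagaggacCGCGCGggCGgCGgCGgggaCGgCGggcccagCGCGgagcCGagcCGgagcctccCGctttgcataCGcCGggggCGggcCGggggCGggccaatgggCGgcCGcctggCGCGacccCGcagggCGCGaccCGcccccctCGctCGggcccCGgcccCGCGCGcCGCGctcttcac
Hoxa13 held 45 CG dinucleotides, more than 98.1% of the 32851 promoters in the table. Hoxd9 held 20, Hoxa2 held 9 and Hoxd8 held 6, against a median of 7 over all promoters. Of the 38 members, 22 matched the table with 24 promoters, whose median was 14.5 CG and whose range was 4 to 45. The letters TGATNNAT, a form of the joint site of PBX and HOX proteins, were searched on both strands and occurred in the Hoxa2 window and in 4 of the 24 member windows, which is 16.7%, against 8.8% of all windows. A match is a description of letters and not of binding.

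The labels were checked once. Relative sequencing depth, read from the steps between low FPKM values, ran from 0.43 to 1.80 in K27M tumors, from 0.835 to 1.75 in WT-Tag tumors and from 0.267 to 1.17 in the cultures. Cultures labelled hindbrain were lower than forebrain cultures of the same genotype in the forebrain factors Emx2 and Lhx2, and higher in Irx2 of the midbrain and hindbrain, in both genotypes, each past the threshold of the test used below. Of the 12 forebrain markers, 6 were lower and 1 higher in hindbrain than in forebrain K27M cultures, and 4 were lower and none higher in WT-Tag cultures. The marker that went against the label was Otx2, also a midbrain gene, at 21.7 to 28.5 FPKM in K27M hindbrain cultures, against 4.61 to 6.42 FPKM in K27M forebrain cultures. In WT-Tag cultures Otx2 went the same way without being called, at 7.68 to 16.4 FPKM in hindbrain, against 1.01 to 4.31 FPKM in forebrain. H3f3a itself had 34.0 to 101.5 FPKM in K27M tumors, against 43.7 to 111 FPKM in WT-Tag tumors, a value that does not test the point mutation. WT-Tag tumors 8 and 9 were taken not to match their labelled sex, for which no values are given here. Tests of the HOX members called in the tumors are given with and without them.

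In the tumors, HOX expression ran from the 3′ end through the middle of the clusters in both groups, though not in every cluster of every tumor. Members past the test were Hoxd9 and Hoxa13, toward the 5′ ends of clusters D and A, both lower in K27M tumors, and none was higher. A call is an adjusted p under 0.05 in limma's moderated test on log2(FPKM + 1), with Benjamini-Hochberg adjustment over all 30912 entries above 0 in any tumor. These 2 of the 36 members tested stand against 0.0615% of all entries called lower. Hoxc12 and Hoxd12 were listed at 0 in every tumor and were not tested.

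Among the 3′ members, which pattern the hindbrain, Hoxa2 was present in every tumor. It had 1.87, 2.90 and 12.8 FPKM (lowest, median and highest) in K27M tumors, against 1.68, 2.99 and 6.71 FPKM in WT-Tag tumors. The groups overlapped throughout, and the log2 change was -0.04 ± 0.20 (SE, adjusted p = 0.966 by limma). Hoxb2, which also patterns the hindbrain and its facial motor neurons, had the highest mean of cluster B, at 1.67 ± 0.73 FPKM in K27M tumors and 1.34 ± 1.08 FPKM in WT-Tag tumors (SD, n = 20 and 9). Hoxb1 and Hoxd1, the members of the first paralog group in the set, did not reach 1 FPKM in any tumor.

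In the middle of the clusters, Hoxa5, which acts in the brainstem, neck and lung, was the highest member of all. Its levels were 0.066, 6.69 and 15.6 FPKM in K27M tumors and 1.30, 8.08 and 15.1 FPKM in WT-Tag tumors, and the groups overlapped. Hoxa7, a trunk-patterning gene, had 0.043, 1.41 and 14.7 FPKM in K27M tumors, against 0.488, 6.20 and 15.9 FPKM in WT-Tag tumors. Its log2 change was -1.21 ± 0.43 (SE) and missed the threshold (adjusted p = 0.560 by limma). Hoxc4, active in the neck and upper spinal cord, was the highest of cluster C, at 1.11 ± 1.05 FPKM in K27M tumors and 1.48 ± 1.29 FPKM in WT-Tag tumors (SD, n = 20 and 9).

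**Figure D1:**
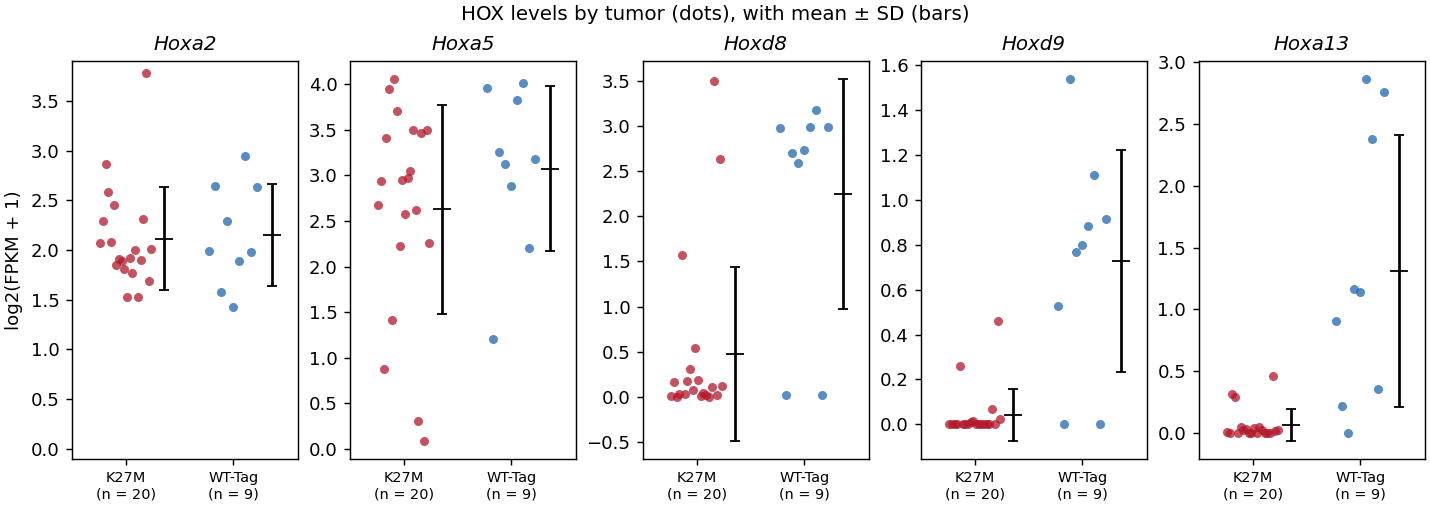
Levels of 5 members in each tumor on the log2(FPKM + 1) scale, with K27M tumors (red, n = 20) left of WT-Tag tumors (blue, n = 9); dots are tumors and bars are mean ± SD. Hoxa2 and Hoxa5 overlap between the groups, while Hoxd9 and Hoxa13 lie near 0 in most K27M tumors and above them in 7 and 6 of the 9 WT-Tag tumors.

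Hoxd8, a trunk and lower spinal cord gene that also had the highest mean of cluster D, was described after its values were seen. It had 0, 0.0655 and 10.3 FPKM in K27M tumors, where tumors 22, 24 and 5 stood apart at 10.3, 5.19 and 1.96 FPKM. In WT-Tag tumors it had 0.011, 5.64 and 8.06 FPKM, and only tumors 8 and 28, both at 0.011 FPKM, were below 1. The groups thus overlapped at both ends, through 3 high K27M tumors and 2 low WT-Tag tumors. The log2 change of -1.77 ± 0.42 (SE) missed the threshold (adjusted p = 0.127 by limma). That p ran from 0.0143 to 0.253 when single tumors were left out. It passed without WT-Tag tumor 8 (0.0271), WT-Tag tumor 28 (0.0208), K27M tumor 22 (0.0143) or K27M tumor 24 (0.0464). Hoxd8 was not called when WT-Tag tumors 8 and 9 were both left out.

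Hoxd9, the neighbor of Hoxd8 and a gene of the lumbar spinal cord and limb, was listed at 0 in 14 of 20 K27M tumors and reached at most 0.375 FPKM there, in tumor 24, with 0.197 FPKM in tumor 5 and less than 0.1 FPKM in the other tumors. In WT-Tag tumors it had 0, 0.739 and 1.90 FPKM, with tumors 8 and 28 at 0. The other 7 WT-Tag tumors all lay above the highest K27M tumor. The log2 change was -0.69 ± 0.11 (SE, adjusted p = 0.00345 by limma). It kept its call in every fit that left out 1 tumor.

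Hoxa13, the last gene of cluster A, which patterns the limb tip and the hind end of the body, had 0, 0.0105 and 0.379 FPKM in K27M tumors, against 0, 1.21 and 6.28 FPKM in WT-Tag tumors. In single WT-Tag tumors it had 6.28 FPKM in tumor 26, 5.79 FPKM in tumor 29 and 4.20 FPKM in tumor 27, while tumors 9, 8 and 28 had 0, 0.161 and 0.278 FPKM and fell within the K27M range. The log2 change was -1.25 ± 0.24 (SE, adjusted p = 0.0193 by limma). The call was lost without WT-Tag tumor 27 (adjusted p = 0.0704) or WT-Tag tumor 29 (adjusted p = 0.0568).

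Several other 5′ members of clusters A and C were low in both groups and reached their highest values in WT-Tag tumors. Hoxa10, a gene of the lumbar cord and uterus, reached 0.029 FPKM in the highest K27M tumor and 2.95 FPKM in the highest WT-Tag tumor, and 8 of 9 WT-Tag tumors lay above every K27M tumor. Its log2 change of -0.49 ± 0.15 (SE) missed the threshold (adjusted p = 0.377 by limma). Hoxc9, which sets the identity of thoracic motor neurons, reached 0.037 FPKM in K27M tumors and 2.98 FPKM in WT-Tag tumors, of which 6 lay above every K27M tumor, with a log2 change of -0.61 ± 0.16 (SE, adjusted p = 0.221 by limma). With a pseudocount of 0.1 in place of 1, Hoxa10 (adjusted p = 0.0253) and Hoxc9 (adjusted p = 0.0448) were called lower beside Hoxd9 and Hoxa13. Under that setting 0.097% of all entries were called lower. Hoxa9 and Hoxc10 had their highest values, 3.20 and 3.35 FPKM, in WT-Tag tumor 27. Hoxb9, a thoracic gene of cluster B, ran the other way, with up to 0.802 FPKM in K27M tumors, of which 4 reached 0.1 FPKM, against up to 0.071 FPKM in WT-Tag tumors (log2 change 0.06 ± 0.08 SE, adjusted p = 0.890 by limma).

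The 16 members of paralog groups 9 to 13, a grouping made after the values were seen, summed to 0.025, 0.089 and 1.36 FPKM per tumor (lowest, median and highest) in K27M tumors, against 0.201, 2.90 and 17.3 FPKM in WT-Tag tumors. None of 20 K27M tumors had any of them at 1 FPKM or more, against 6 of 9 WT-Tag tumors. At 0.1 FPKM the counts were 7 of 20 K27M tumors and 9 of 9 WT-Tag tumors. The most 5′ member of cluster A to reach 1 FPKM was Hoxa7 in 12 K27M tumors, Hoxa6 in 1, Hoxa5 in 4 and Hoxa2 in 3. In WT-Tag tumors it was Hoxa13 in 5, Hoxa7 in 3 and Hoxa5 in 1. In WT-Tag tumors 10, 11 and 26, where Hoxa13 passed 1 FPKM, Hoxa9, Hoxa10 and Hoxa11 stayed at or under 0.305 FPKM.

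**Figure D2:**
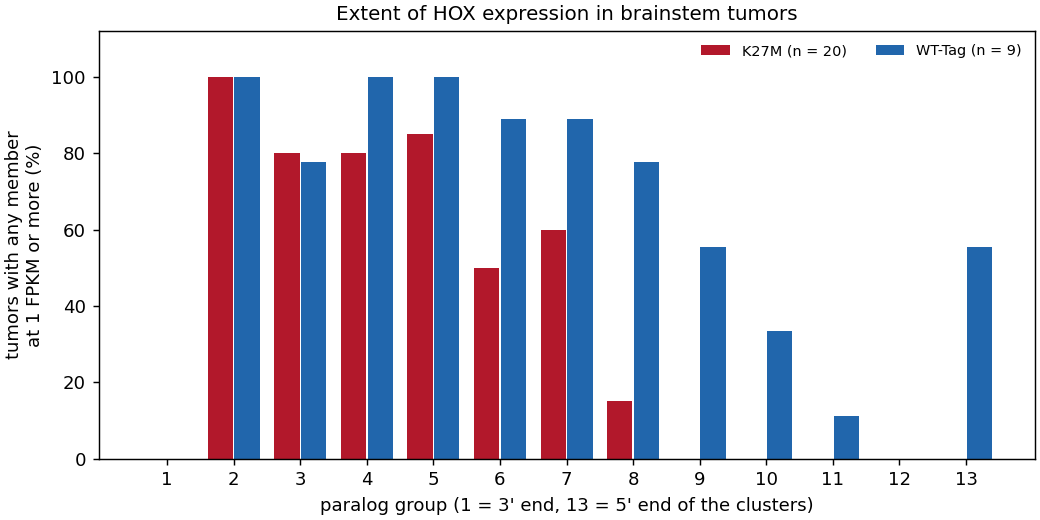
Share of tumors (%) in which any member of a paralog group reached 1 FPKM, for groups 1 (3′ end) to 13 (5′ end), K27M in red (n = 20) left of WT-Tag in blue (n = 9). Group 2 was reached in all tumors of both groups, group 8 in 3 of 20 K27M and 7 of 9 WT-Tag tumors, and group 9 in 0 and 5. Groups 10, 11, 12 and 13 were reached in 3, 1, 0 and 5 WT-Tag tumors and in no K27M tumor.

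The share of tumors with a member at 1 FPKM fell along the clusters at different points, and in WT-Tag tumors it did not fall steadily. Groups 9, 10, 11 and 12 were reached in 5, 3, 1 and 0 of 9 WT-Tag tumors. Group 13 was reached in 5 of 9, through Hoxa13. Group 6 was reached in 10 of 20 K27M tumors and 8 of 9 WT-Tag tumors, and group 7 in 12 of 20 and 8 of 9. From 1 to 17 members, with a median of 7.5, reached 1 FPKM in a K27M tumor, and from 4 to 21, with a median of 15, in a WT-Tag tumor. In all, 17 members did so in any K27M tumor and 26 in any WT-Tag tumor, although there were fewer WT-Tag tumors.

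Over the set, 32 of 36 members had a negative and 4 a positive log2 change, with a median of -0.18, where the median over all 30912 entries was -0.00026 and 50.35% of them were negative. Unadjusted p was under 0.05 in 14 of 36 members and in 6.709% of all entries. The 4 positive changes were all in cluster B, whose median was -0.02, against -0.46 in cluster A, -0.26 in cluster C and -0.14 in cluster D. Neighbors in a cluster share regulation and, in 10 members, stretches of overlapping annotation (Hoxa3 to Hoxa6, Hoxb3 and Hoxb4, Hoxd3 and Hoxd4, Hoxd10 and Hoxd11), where the split of reads is uncertain, so the members are not independent of each other.

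The clusters also differed within groups. Cluster A was on in all 29 tumors, with at least 3.67 FPKM summed over its members, and made up a median of 67.28% of the HOX sum in K27M tumors, against 65.64% in WT-Tag tumors. Cluster B summed to less than 1 FPKM in 5 tumors, K27M tumors 1 and 4 and WT-Tag tumors 8, 9 and 28. Cluster C was under 1 FPKM in all 5 of them, although they had 11.8 to 27.9 FPKM summed over cluster A. Cluster C was also under 1 FPKM in K27M tumors 3, 6, 14, 18, 21, 23 and 25. Cluster D was under 1 FPKM in the same 9 K27M tumors as cluster C and in WT-Tag tumors 8 and 28.

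**Figure D3:**
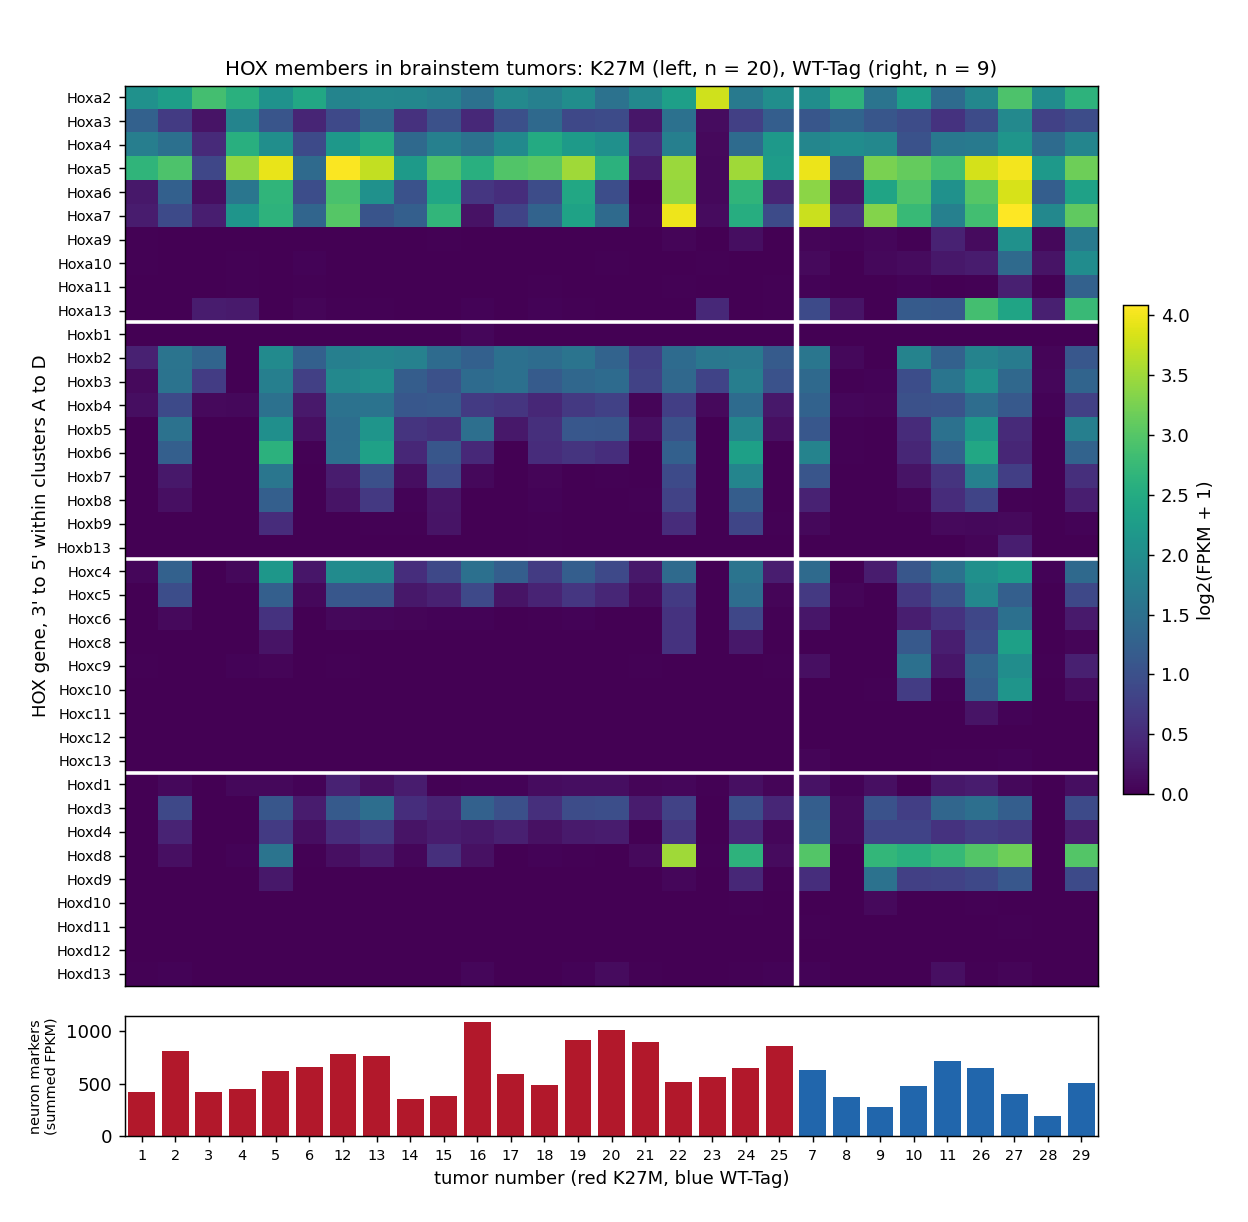
Levels (log2(FPKM + 1), color) of the 38 members, 3′ to 5′ within each cluster from top to bottom, in each of 20 K27M tumors (left) and 9 WT-Tag tumors (right), above the summed FPKM of 12 neuron markers (bars, K27M red, WT-Tag blue). Hoxa2 is on in every tumor, Hoxa13 and Hoxd9 are lit in most WT-Tag columns and dark or faint in tumors 8 and 28, and the columns of tumors 1, 4, 8, 9 and 28 are dark in clusters B and C.

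Markers of other cell types differed in level between the tumors. In bulk tissue, fewer cells of a type and less RNA per cell cannot be told apart. The 12 neuron markers summed to 356, 638 and 1084 FPKM (lowest, median and highest) in K27M tumors, against 195, 477 and 718 FPKM in WT-Tag tumors, and all 12 had positive log2 changes, with none called. The 8 markers of mature oligodendrocytes summed to 433, 874 and 1482 FPKM in K27M tumors, against 235, 383.5 and 1291 FPKM in WT-Tag tumors, and all 8 had positive log2 changes, with none called. In the 5 tumors with clusters B and C under 1 FPKM, the neuron sum ran from 195 to 447 FPKM and Rbfox3, a marker of mature neurons, from 0.098 to 0.297 FPKM. In the other 24 tumors the neuron sum ran from 356 to 1084 FPKM and Rbfox3 from 0.14 to 5.23 FPKM. Across the tumors of each group, the cluster B sum and the neuron sum had a Spearman correlation of 0.18 over the K27M tumors (n = 20) and 0.92 over the WT-Tag tumors (n = 9), where both sums come from the same libraries. The correlation was 0.38 over K27M and 0.58 over WT-Tag tumors for cluster C, -0.06 over K27M and 0.32 over WT-Tag tumors for cluster A, and 0.37 over K27M and 0.4 over WT-Tag tumors for cluster D. The neuron sum is weighted toward its highest markers. In K27M tumor 23, Gap43 alone had 336 of the 564 FPKM, with Rbfox3 at 0.14 FPKM. K27M tumor 14 had a lower sum, 356 FPKM, and a higher Rbfox3, 0.763 FPKM. The correlations are therefore with this sum and may differ from those with neuron content.

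The part of neurons in the cluster B and C pattern, and of oligodendrocytes in any HOX difference, was not tested. With the neuron sum as a covariate, added after seeing the data, Hoxd9 (log2 change -0.72, adjusted p = 0.0101) and Hoxa13 (-1.42, adjusted p = 0.0147) were both called lower by limma. That fit cannot decide the part of neurons, because the sum is weighted toward its highest markers. Without WT-Tag tumors 8 and 9, and without the covariate, the changes were -0.67 for Hoxd9 (adjusted p = 0.000175) and -1.59 for Hoxa13 (adjusted p = 0.000275), both by limma. The 6 motor neuron markers summed to 8.16, 25.4 and 127 FPKM in K27M tumors, against 2.27, 13.2 and 31.4 FPKM in WT-Tag tumors, with none called.

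Among the partners and neighbors of the HOX genes in the tumors, 1 of 9 cofactors changed: Pbx3, whose protein binds DNA together with HOX proteins, was higher in K27M tumors (log2 change 0.78 ± 0.13 SE, adjusted p = 0.00345 by limma). It had 3.23, 4.67 and 6.73 FPKM in K27M tumors, against 1.03, 2.11 and 4.90 FPKM in WT-Tag tumors. Of the regional markers, En2, a gene of the midbrain-hindbrain boundary, was lower in K27M tumors (-1.35 ± 0.23 SE, adjusted p = 0.00552), as were the forebrain factors Emx2 (-0.28, adjusted p = 0.00552) and Lhx2 (-0.72, adjusted p = 0.0271), all by limma. None of 13 noncoding RNAs of the clusters passed. Hotairm1, transcribed from the 3′ end of cluster A, had 4.36, 8.36 and 12.3 FPKM in K27M tumors and 4.70, 6.11 and 14.2 FPKM in WT-Tag tumors. Hoxd3os1, an antisense RNA of cluster D, had 0, 0 and 1.05 FPKM in K27M tumors, against 0, 0.915 and 1.27 FPKM in WT-Tag tumors (log2 change -0.62 ± 0.13 SE, adjusted p = 0.0633 by limma). None of 27 retinoid and axial regulators and none of 25 Polycomb and Trithorax genes passed in the tumors.

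In the hindbrain cultures, WT-Tag libraries expressed members of the 3′ end and the middle of the clusters at low levels, and K27M libraries expressed little of any member. Hoxa2 and Hoxb2, which pattern the rhombomeres of the hindbrain, were called lower with K27M and no member was called higher, 2 of 38 members against 1.42% of all 32641 entries called lower. The 4 culture groups were fitted together, with the same test and threshold. No member reached 1 FPKM in a K27M hindbrain library. In the WT-Tag hindbrain libraries of experiments 1, 2 and 3, 0, 2 and 6 members did.

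Hoxa2 had 0.000, 0.213 and 0.055 FPKM in K27M hindbrain cultures of experiments 1, 2 and 3, against 0.642, 2.46 and 4.45 FPKM in WT-Tag hindbrain cultures. All 3 K27M libraries lay below all 3 WT-Tag libraries, of which experiment 1 was the lowest. The log2 change was -1.53 ± 0.32 (SE, adjusted p = 0.0328 by limma). Hoxb2 had 0.021, 0.104 and 0.030 FPKM in K27M hindbrain cultures, against 0.329, 1.33 and 1.49 FPKM in WT-Tag hindbrain cultures, again without overlap. Its log2 change was -0.91 ± 0.18 (SE, adjusted p = 0.0282 by limma).

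Members further along missed the threshold. Hoxb3, a gene of the lower hindbrain, had 0, 0.048 and 0.022 FPKM in K27M hindbrain cultures, against 0.068, 0.474 and 1.10 FPKM in WT-Tag hindbrain cultures (log2 change -0.54 ± 0.18 SE, adjusted p = 0.135 by limma). Hoxa5 had 0, 0.107 and 0.035 FPKM in K27M hindbrain cultures, against 0.031, 0.898 and 2.18 FPKM in WT-Tag hindbrain cultures (log2 change -0.81 ± 0.29 SE, adjusted p = 0.178 by limma). Hoxa7 had 0, 0.010 and 0.011 FPKM in K27M hindbrain cultures, against 0.010, 0.108 and 1.85 FPKM in WT-Tag hindbrain cultures. The K27M values of Hoxa5 and Hoxa7 overlapped those of the WT-Tag library of experiment 1.

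**Figure D4:**
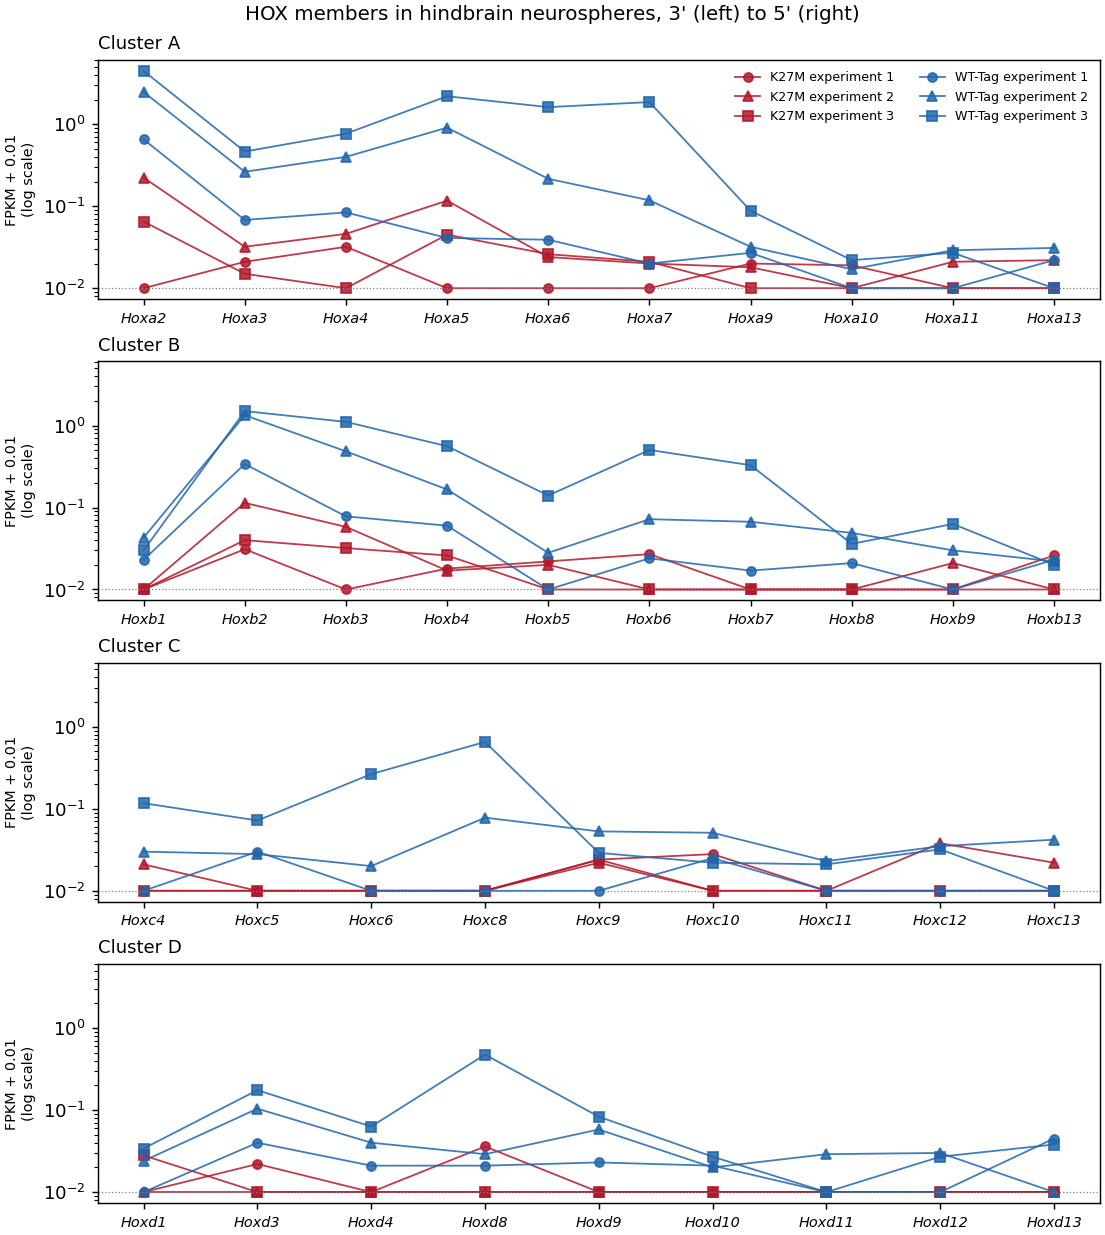
Levels of all members in each hindbrain culture, FPKM + 0.01 on a log axis, from 3′ (left) to 5′ (right) in clusters A to D; K27M libraries are red, WT-Tag libraries blue, and circles, triangles and squares are experiments 1, 2 and 3. WT-Tag lines fall from Hoxa2 and Hoxb2 toward the 5′ end and run lowest in experiment 1, while K27M lines stay near the dotted line, which marks 0 FPKM.

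Over the set, all 38 members had a negative log2 change in the hindbrain cultures, with a median of -0.0466, where the median over all entries was -0.00813 and 54.03% were negative. In 16 of 38 members the 3 K27M libraries all lay below the 3 WT-Tag libraries, and in none did they all lie above. Over all entries, 9.43% lay all below and 8.34% all above. Unadjusted p was under 0.05 in 13 of 38 members and in 17.43% of all entries. Most of these differences were small in FPKM. In experiments 1, 2 and 3, 2, 9 and 17 members reached 0.1 FPKM in WT-Tag hindbrain libraries, against 0, 3 and 0 in K27M hindbrain libraries. Listed at 0 in all 3 libraries were 13 members in K27M and 0 members in WT-Tag cultures. Relative depth ran from 0.76 to 0.929 in K27M and from 0.909 to 1.174 in WT-Tag hindbrain libraries. Its part in the counts of zeros, of negative changes and of libraries without overlap was not tested.

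The HOX sum per library was 0.196, 0.676 and 0.222 FPKM in K27M hindbrain cultures of experiments 1, 2 and 3, against 1.52, 7.11 and 17.6 FPKM in WT-Tag hindbrain cultures. The WT-Tag libraries were spread widely among themselves, with experiment 1 far below the others, and all lay above every K27M library. The calls depended on this spread. Without the WT-Tag library of experiment 1, 11 members were called lower, among them Hoxa3, Hoxa4, Hoxa5, Hoxb3 and Hoxb4, where 4.85% of all entries were, and without any other single hindbrain library none was. None was called without experiment 3, whose cultures also differed in labelled sex (Hoxa2 -1.11, adjusted p = 0.298, and Hoxb2 -0.73, adjusted p = 0.345), or when only the 6 hindbrain libraries were fitted (Hoxa2 adjusted p = 0.217, Hoxb2 adjusted p = 0.204, by limma).

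Among the noncoding RNAs and flanking genes of the clusters, 2 were called in hindbrain cultures. Hotairm1 had 0.205, 0.364 and 0.065 FPKM in K27M hindbrain cultures, against 1.203, 4.35 and 6.17 FPKM in WT-Tag hindbrain cultures, and was the only one of 11 cluster noncoding RNAs called (log2 change -1.86 ± 0.33 SE, adjusted p = 0.0176 by limma). Skap2, an adaptor protein gene that flanks the 3′ end of cluster A, had 11.6, 11.1 and 9.43 FPKM in K27M hindbrain cultures, against 23.4, 43.7 and 46.1 FPKM in WT-Tag hindbrain cultures. It was the only one of 14 flanking genes called (log2 change -1.67 ± 0.25 SE, adjusted p = 0.00904 by limma), and 8 of the 14 had a positive log2 change. Neither gene had overlapping groups.

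The regulators of the clusters split. Of 26 retinoid and axial regulators, 3 were lower in K27M hindbrain cultures and none higher: the retinoic acid receptor Rarb, the retinoid X receptor Rxrg, and Aldh1a1, which makes retinoic acid. Aldh1a1 had 1.55 to 2.84 FPKM in K27M hindbrain cultures, against 9.75 to 17.3 FPKM in WT-Tag hindbrain cultures (log2 change -2.22 ± 0.25 SE, adjusted p = 0.00277 by limma). Of 25 Polycomb and Trithorax genes, 2 were higher and none lower: Rnf2 (0.45 ± 0.08 SE, adjusted p = 0.0154) and Bmi1 (0.64 ± 0.09 SE, adjusted p = 0.00886), which encode subunits of Polycomb repressive complex 1. Of 9 cofactors, Pbx2 (0.54, adjusted p = 0.0154) and Pbx3 (0.53, adjusted p = 0.0176) were higher, all by limma.

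**Figure D5:**
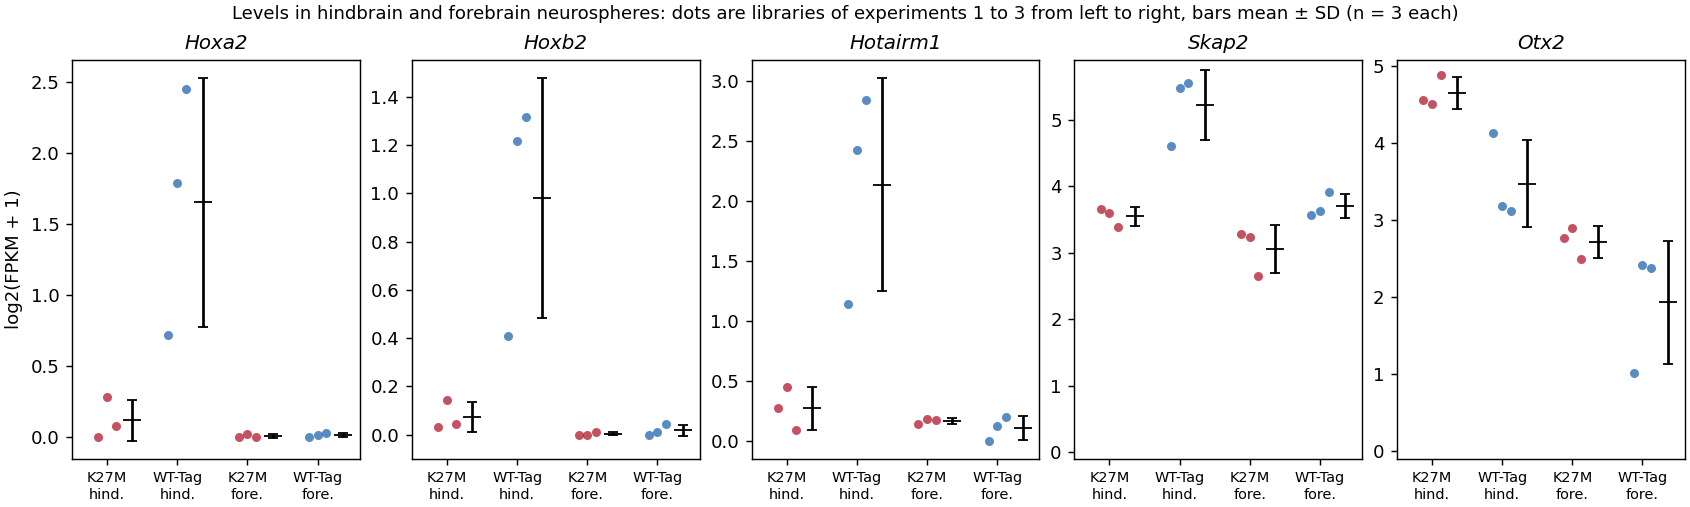
Levels of Hoxa2, Hoxb2, Hotairm1, Skap2 and the forebrain and midbrain factor Otx2 on the log2(FPKM + 1) scale in K27M hindbrain, WT-Tag hindbrain, K27M forebrain and WT-Tag forebrain cultures, with dots for experiments 1 to 3 from left to right and bars for mean ± SD (n = 3 each). Hoxa2, Hoxb2, Hotairm1 and Skap2 are highest in WT-Tag hindbrain cultures, with experiment 1 the lowest of the 3, and Otx2 is highest in K27M hindbrain cultures.

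Markers of brain region and of cell type differed between the same cultures. Otx2, which marks brain in front of the hindbrain, had 22.5, 21.7 and 28.5 FPKM in K27M hindbrain cultures, against 16.4, 8.04 and 7.68 FPKM in WT-Tag hindbrain cultures, and its highest WT-Tag value was in experiment 1, the library with the lowest HOX sum (log2 change 1.18 ± 0.37 SE, adjusted p = 0.123 by limma). Its relative Otx1 was called higher (0.97 ± 0.23 SE, adjusted p = 0.0494 by limma). The 12 forebrain markers summed to 23.9 to 30.7 FPKM in K27M hindbrain cultures, against 8.34 to 17.8 FPKM in WT-Tag hindbrain cultures, but Fezf2, a factor of forebrain neurons, was listed at 0 in all K27M hindbrain libraries. The 13 hindbrain and midbrain markers summed to 37.6 to 52.8 FPKM in K27M hindbrain cultures and 21.4 to 32.8 FPKM in WT-Tag hindbrain cultures, with Irx2 called higher and En2 lower. Most of that difference in sums was Egr2, at 24.9 to 36.6 FPKM in K27M hindbrain cultures and 10.03 to 21.2 FPKM in WT-Tag hindbrain cultures, while 8 of the 13 had a negative log2 change. The 9 astrocyte markers summed to 302 to 353 FPKM in K27M hindbrain cultures, against 569 to 744 FPKM in WT-Tag hindbrain cultures, and 6 of 9 were called lower. Their part in the HOX difference was not tested.

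In the forebrain cultures the clusters were near 0 in both genotypes. No member reached 0.1 FPKM in any of the 6 libraries, and none was called, against 0.107% of all entries called in either direction. At an unadjusted p under 0.05 the count was 0 as well, against 8.339% of all entries, by limma. The HOX sum per library ran from 0.158 to 0.508 FPKM in K27M forebrain cultures and from 0.211 to 0.559 FPKM in WT-Tag forebrain cultures. The members with the smallest p were Hoxa9 (log2 change -0.05, adjusted p = 0.653), Hoxd1 (adjusted p = 0.773), Hoxb9 (adjusted p = 0.829) and Hoxa13 (adjusted p = 0.875, limma). At these levels a difference was not detectable. Bmi1 was higher in K27M forebrain cultures as well (0.74 ± 0.09 SE, adjusted p = 0.0187 by limma).

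Whether the K27M difference itself depended on region was tested as an interaction, the hindbrain change minus the forebrain change. No member was called, against 0.0245% of all entries in either direction, and 7 of 38 had an unadjusted p under 0.05 by limma, against 5.646% of all entries. Hoxb2 had a difference of changes of -0.90 ± 0.26 (SE, adjusted p = 0.737) and Hoxa2 of -1.53 ± 0.45 (SE, adjusted p = 0.789, limma). Hoxa4 (-0.47, adjusted p = 0.870) and Hoxd3 (-0.12, adjusted p = 0.873, limma) followed. Without the WT-Tag hindbrain library of experiment 1, 5 members were called lower, Hoxa2, Hoxa3, Hoxa4, Hoxa5 and Hoxb2, where 0.507% of all entries were.

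The regional difference was then read within each genotype. These comparisons share libraries with those above. In WT-Tag cultures Hoxb2 was called higher in hindbrain than in forebrain (log2 change 0.96 ± 0.18 SE, adjusted p = 0.0490 by limma), where the forebrain libraries had at most 0.03 FPKM, and it was the only member called, against 0.398% of all entries called higher. With the experiment as a block the adjusted p of Hoxb2 was 0.0618 and the call was lost, and with median ratio scaling it was 0.0575. Without the WT-Tag hindbrain library of experiment 1, 8 members were called higher, where 1.32% of all entries were, and without any other single library none was. Hoxa2 missed the threshold (1.64 ± 0.32 SE, adjusted p = 0.0601 by limma). In 16 of 38 members all 3 WT-Tag hindbrain libraries lay above all 3 WT-Tag forebrain libraries, against 5.45% of all entries.

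In K27M cultures no member was called between hindbrain and forebrain, against 2.59% of all entries called in either direction. None had an unadjusted p under 0.05 by limma, against 13.96% of all entries. The culture groups were fitted together, so each member had the same SE here as between regions in WT-Tag cultures. No member passed 0.213 FPKM in any K27M culture, and Hoxb2 had a log2 change of 0.07 ± 0.18 (SE, unadjusted p = 0.715 by limma). At such levels and with that SE, this test cannot decide whether members differed between regions in K27M cultures. Hoxb2 was the single member with all 3 K27M hindbrain libraries above the forebrain libraries, and Hoxc8 the single one below, against 8.86% of all entries above and 9.95% below. The smallest p belonged to Hoxc10 (log2 change -0.04, adjusted p = 0.592), Hoxa11 (-0.02, adjusted p = 0.639), Hoxc12 (0.01, adjusted p = 0.759) and Hoxc9 (-0.02, adjusted p = 0.771, limma). Meis1, a HOX cofactor, was higher in hindbrain than in forebrain in both genotypes, by 1.12 ± 0.12 (SE, adjusted p = 0.00110) in K27M cultures and 1.13 ± 0.12 (SE, adjusted p = 0.00184, limma) in WT-Tag cultures. 

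Set side by side without a test, since tissue, Cre line and tumor alleles differ together, the median sum of each cluster was higher in tumors than in hindbrain cultures of the same histone allele. The HOX sum had a median of 23.2 FPKM in K27M tumors and 0.222 FPKM in K27M hindbrain cultures, and of 45.7 FPKM in WT-Tag tumors and 7.11 FPKM in WT-Tag hindbrain cultures. Hoxa2 was the highest member in WT-Tag hindbrain cultures, and Hoxa5 in both tumor groups. In the tumors Hoxa2 and Hoxb2 overlapped between K27M and WT-Tag, while Hoxd9 and Hoxa13 were called lower. In the hindbrain cultures Hoxa2 and Hoxb2 were called lower, while Hoxd9 stayed at or under 0.073 FPKM in all 6 libraries.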

How the data were processed

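RNA was extracted with Trizol and libraries were made from total RNA with a stranded Illumina kit, per the labels' protocols. The authors deposited 1 table of FPKM for 34591 entries and 41 libraries, which was used as deposited. CASAVA, TopHat2, STAR and the mm9 build are named in the submitters' processing notes, with no role for each. How reads were counted, and with which strand setting, was not given in the sources used here. Sense and antisense RNAs of a cluster may therefore share reads. No counts were used. Relative depth was read from the steps between low values, since 99.9% of 32048 low values were whole multiples of a step within 0.1.

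Values were fitted as log2(FPKM + 1) with limma 3.58.1 (moderated test with trend, 2-sided) in R 4.3.3, in 1 fit of the 29 tumors and 1 fit of the 12 cultures as 4 groups. On this scale the change of a low gene comes out smaller than its ratio. Every entry above 0 in any library of the fit was tested, and p-values were adjusted over all of them by the Benjamini-Hochberg method with a threshold of 0.05. The code was checked on simulated data.

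The members, gene lists and tests were chosen with earlier results of these data known. Members past the threshold were named, or the 4 with the smallest p where none passed, together with the highest member of each cluster; Hoxd8, Hoxa7 and further members were named after their values were seen. Of 195 genes on the further lists, 193 were found. The experiment number in the labels pairs cultures across groups. Deviations from group means correlated from -0.468 to 0.732 in 18 pairs of the same experiment and from -0.731 to 0.687 in 36 other pairs. Alternatives were another pseudocount, median ratio scaling, a filter on level, the experiment as a block, labelled sex as a covariate, leaving out libraries, and a neuron marker covariate.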

Additional observations from a re-analysis of the deposited data

Results flagged for a closer look

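In 6 of the 35 members examined in the 9 WT-Tag tumors, the highest tumor lay far above the next. Chance meets the rule used in about 1 of 20 groups only where values are normally distributed. That rate does not hold for members at 0 in most tumors, and Hoxb13, Hoxc11 and Hoxd10 were each at 0 in 6 of 9. No excess can therefore be read from the count. Hoxa11, a gene of the forelimb and uterus, had 1.41 FPKM in tumor 29, against 0.28 FPKM in the next. Hoxc8, a thoracic cord gene, had 3.97 FPKM in tumor 27, against 1.21 FPKM, and Hoxb13, a tail-end gene, had 0.269 FPKM in the same tumor, against 0.043 FPKM. Hoxc11 had 0.158 FPKM in tumor 26, against 0.023 FPKM. Hoxd10 had 0.07 FPKM in tumor 9, against 0.012 FPKM, and Hoxd13 had 0.121 FPKM in tumor 11, against 0.037 FPKM. These members belong to paralog groups 8 to 13, and the highest value was in 5 different tumors. None of these members was called between the tumor groups.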

How the results depend on the processing

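Of the counts of called members, 78 stayed within 1.5 times of the value given and 28 did not. In the tumors the count was 4 with a pseudocount of 0.1 and 0 with a filter of 1 FPKM in at least 9 tumors, which left 14 members, and 1 to 3 with single tumors left out. In hindbrain cultures it was 0 with a filter of 1 FPKM in at least 3 libraries, which left no member, 0 without experiment 3, 0 with only the libraries compared, and 0 to 11 with single libraries left out. Between hindbrain and forebrain in WT-Tag cultures it was 2 with a pseudocount of 0.1, 0 with median ratio scaling, 0 with the filter, 0 with the experiment as a replicate block, 0 without experiment 3, 0 with only the libraries compared, and 0 to 8 with single libraries left out. For the region interaction it was 0 to 5 with single libraries left out. The block changed no other call of a member. At 0.1 FPKM in place of 1, 3 members were detected in at least 1 K27M hindbrain culture and 17 in at least 1 WT-Tag hindbrain culture.

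Of the alternatives for single named members, 263 kept direction and side of the threshold, 25 lost a call, 9 gained one and 2 changed or lost their sign. Both were changes near 0 between regions in K27M cultures: with single libraries left out, Hoxc12 came to exactly 0 at its lowest (0 to 0.01992, log2) and Hoxc9 changed sign (-0.0463 to 0.01122), and the cause was not tested. Members under about 0.03 FPKM lie near the lowest values the files hold, so their differences are limited by depth.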

Other observations

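Beyond the HOX members, the neighbors and regulators of the clusters had regional values in the cultures that the comparisons above leave out. In WT-Tag cultures Hotairm1 (log2 change 2.03 ± 0.33 SE, adjusted p = 0.0221) and Skap2 (1.51 ± 0.25 SE, adjusted p = 0.0221) were higher in hindbrain than in forebrain, by limma. In K27M cultures the same contrast gave 0.11 ± 0.33 (SE, adjusted p = 0.979) for Hotairm1 and 0.49 ± 0.25 (SE, adjusted p = 0.433, limma) for Skap2. The retinoid genes Aldh1a1 (2.34, adjusted p = 0.00184) and Rxrg (1.07, adjusted p = 0.0170, limma) were higher in hindbrain than in forebrain in WT-Tag cultures, against 0.96 (adjusted p = 0.0848) and 0.03 (adjusted p = 1) in K27M cultures. The differences of these changes between genotypes missed the threshold: -1.92 for Hotairm1 (adjusted p = 0.543), -1.02 for Skap2 (adjusted p = 0.820), -1.38 for Aldh1a1 (adjusted p = 0.591) and -1.04 for Rxrg (adjusted p = 0.472, limma).

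Meis2, a HOX cofactor of forebrain and hindbrain, was lower in hindbrain than in forebrain in K27M cultures (-1.10 ± 0.19 SE, adjusted p = 0.0142) and missed the threshold in WT-Tag cultures (-0.43 ± 0.19 SE, adjusted p = 0.612, limma). In the tumors Meis2 had a log2 change of 0.70 ± 0.15 (SE) that missed the threshold (adjusted p = 0.0633, limma), with 2.12 to 7.84 FPKM in K27M tumors, against 1.78 to 4.63 FPKM in WT-Tag tumors.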
